A study of Mus musculus with 4 samples.

Results

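The 45 genes described here encode the proteins that shorten poly(A) tails and remove 5′ caps from mRNA, with the CCR4-NOT complex at their centre. They were given as a list of symbols and found as rows of the deposited matrices, 44 by symbol and *Cnot9* through its gene identifier because the files carry its older symbol *Rqcd1*, of 30828 genes in all. The genes were read in single cells from mouse testes at postnatal day 8. The labels call the control samples wild-type and the others *Cnot3* KO, while the text of the study gives neonatal controls as littermates homozygous for the floxed *Cnot3* allele (*Cnot3* flox/flox) and the others as *Cnot3*-cKO mice that carry the same alleles with a tamoxifen-inducible Cre driven by *Ddx4* (*Ddx4*-creER), a promoter active in germ cells. All mice received 4-hydroxytamoxifen (4-OHT) from postnatal day 1. The labels count the last day of injection up by 1 from sample to sample (days 1 and 2 for the control samples, 3 and 4 for the *Cnot3*-cKO samples), whereas the methods of the study give days 1 to 3 for all neonatal mice, and which of these holds was not settled. Sorted testis cells, labelled CD9+/THY1+ for a pair of surface proteins used to enrich germ cells, entered droplets, in which transcripts were tagged near their 3′ ends with unique molecular identifiers (UMIs). Both samples of a genotype were merged in 1 matrix, which left 1 library per genotype. Their titles begin with NS and NOV, and the methods name a NextSeq and a NovaSeq sequencer, so the pair may be 2 runs of 1 library. The comparison between genotypes therefore had no replicates and no test, and each interval below is an exact 95% interval that covers counting error only.

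Deadenylation is the first step in the decay of most mRNAs. The PAN2-PAN3 nuclease trims long tails, and CCR4-NOT, a large complex built on the scaffold protein CNOT1, removes the rest through its catalytic subunits of the CCR4 and CAF1 families. The shortened mRNA is bound by the LSM1-7 ring and PATL1, its cap is taken off by DCP2 with its activators, and the 5′ to 3′ exonuclease XRN1 degrades the body. RNA-binding proteins such as the ZFP36 family, Pumilio and, for microRNAs, the TNRC6 proteins bring CCR4-NOT to chosen mRNAs, and the BTG and TOB proteins link it to poly(A)-binding protein.

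Cells were called from 181550221 UMIs in the control library and 168770743 in the *Cnot3*-cKO library, which gave 8259 and 9268 cells with up to 20% mitochondrial UMIs. Of these barcodes 18 occurred in both libraries. Cells were clustered without the 45 genes or other decay genes, and clusters were named from markers. In control and *Cnot3*-cKO, respectively, there were 1333 and 559 germ-like cells, 2885 and 4362 Sertoli-like cells, 2882 and 3063 interstitial-like cells (stroma and peritubular myoid markers), 55 and 63 macrophage-like cells, and 37 and 42 endothelial-like cells, while 1067 and 1179 cells had no name. Germ markers summed to 3678 and 3506 CPM in germ-like and 67.5 and 55.4 in Sertoli-like cells. A second clustering split the germ-like cells into 420 and 266 SSC-like cells (spermatogonial stem cell markers), 209 and 33 Progenitor-like, 387 and 103 Differentiating-like and 107 and 62 Meiotic-like cells. The remaining 210 and 95 germ-like cells were led by somatic genes, and 85.7% and 77.9% of them were called doublets. Germ-like cells held a median of 42268 and 46199 UMIs against 13288 and 12762 in Sertoli-like cells. CPM stands for UMIs of the gene per 1000000 UMIs summed over the cells of a class. A level in CPM is therefore relative and does not give molecules per cell. Molecules per cell are stated for a few genes only. An order of classes in CPM can be reversed in molecules per cell, as it was for *Cnot1* below. Each molecule is counted once whatever the length of its transcript.

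*Cnot3*, the floxed gene (chr7:3645268-3661109, plus strand, GRCm38, GENCODE M21), encodes a subunit that forms the NOT module with CNOT1 and CNOT2. Its level in germ-like cells was 71.1 CPM in control (4026 UMIs, interval 68.9 to 73.3) and 39.5 in *Cnot3*-cKO (1022 UMIs, interval 37.1 to 41.9). The log2 ratio, *Cnot3*-cKO over control, was -0.85 (-0.95 to -0.75), and UMIs per cell went from 3.02 to 1.83. In the larger somatic classes the libraries lay close together, with 63.8 and 67.5 CPM in Sertoli-like cells and 46.1 and 44.5 in interstitial-like cells. Macrophage-like cells held 65 and 49 *Cnot3* UMIs and endothelial-like cells 38 and 27, too few to set the libraries apart. The level was thus lower in the *Cnot3*-cKO library, whose samples are labelled *Cnot3* KO, in the class where the Cre is driven according to the text of the study. Reads of the 3′ end can lie outside the floxed part of the gene, so the remaining counts do not measure intact transcripts.

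The size of the *Cnot3* difference varied with stage. In SSC-like cells the level was 66.5 CPM in control and 31.7 in *Cnot3*-cKO (log2 ratio -1.07, -1.24 to -0.90). In Progenitor-like cells it was 71.9 and 40.6 (-0.83, -1.24 to -0.43), and in Differentiating-like cells 73.2 and 44.6 (-0.71, -0.92 to -0.51). Meiotic-like cells had 68.2 and 52.6 (-0.37, -0.71 to -0.04). In *Cnot3*-cKO the SSC-like level was the lowest and the Meiotic-like level the highest, and the counting intervals of their log2 ratios do not overlap. After each cell was thinned to 10000 UMIs, a *Cnot3* UMI was found in 49.5% (46.8 to 52.3%) of the germ-like cells of the control library, 648 of 1308, and in 33.9% (29.9 to 38.0%) of those of the *Cnot3*-cKO library, 186 of 549, with 25 and 10 shallower cells left out. The shares before thinning were 89.5% and 75.5%. In Sertoli-like cells, where the Cre is not driven, the thinned shares were 45.4% and 47.1%. Among thinned SSC-like cells they were 47.3% and 28.8%. The level in empty barcodes was 47.5 and 43.3 CPM and every class held the gene. From Sertoli markers, 8.75% and 6.95% of germ-like UMIs were estimated to come from the empty-barcode profile. At those shares free RNA alone would put a *Cnot3* UMI in 4.07% and 2.96% of thinned germ-like cells. The estimate included the germ-like cells led by somatic genes, mostly called doublets, whose Sertoli RNA it counts as free RNA. Sertoli markers summed to 196 and 258 CPM in all germ-like cells. They summed to 45.2 to 51.9 CPM in the 4 named stages of control and 67.0 to 86.9 in those of *Cnot3*-cKO. The shares are thus likely too high for these stages.

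Over the 45 genes, germ-like cells of the 2 libraries were mostly close. A log2 ratio of 0.5 in either direction was used as the fold threshold, for genes that summed to 100 UMIs or more in the pair of libraries, which all 45 did. *Btg2* and *Zfp36*, 2 of 45 genes, were past it upward, where 9.36% of 13295 genes were, and *Cnot3* and *Tnrc6c*, also 2 of 45, were past it downward, where 4.9% of all genes were. The median log2 ratio of the 45 genes was -0.05 (range -0.85 to 0.59), against 0.02 for all genes. In Sertoli-like cells 0 of 45 genes were past the threshold in either direction, where 1.73% of genes were past it upward and 1.42% downward. In interstitial-like cells *Btg2* and *Zfp36* were again past it upward (1.93% of all genes) and 0 genes downward (2.02%).

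**Figure D1:**
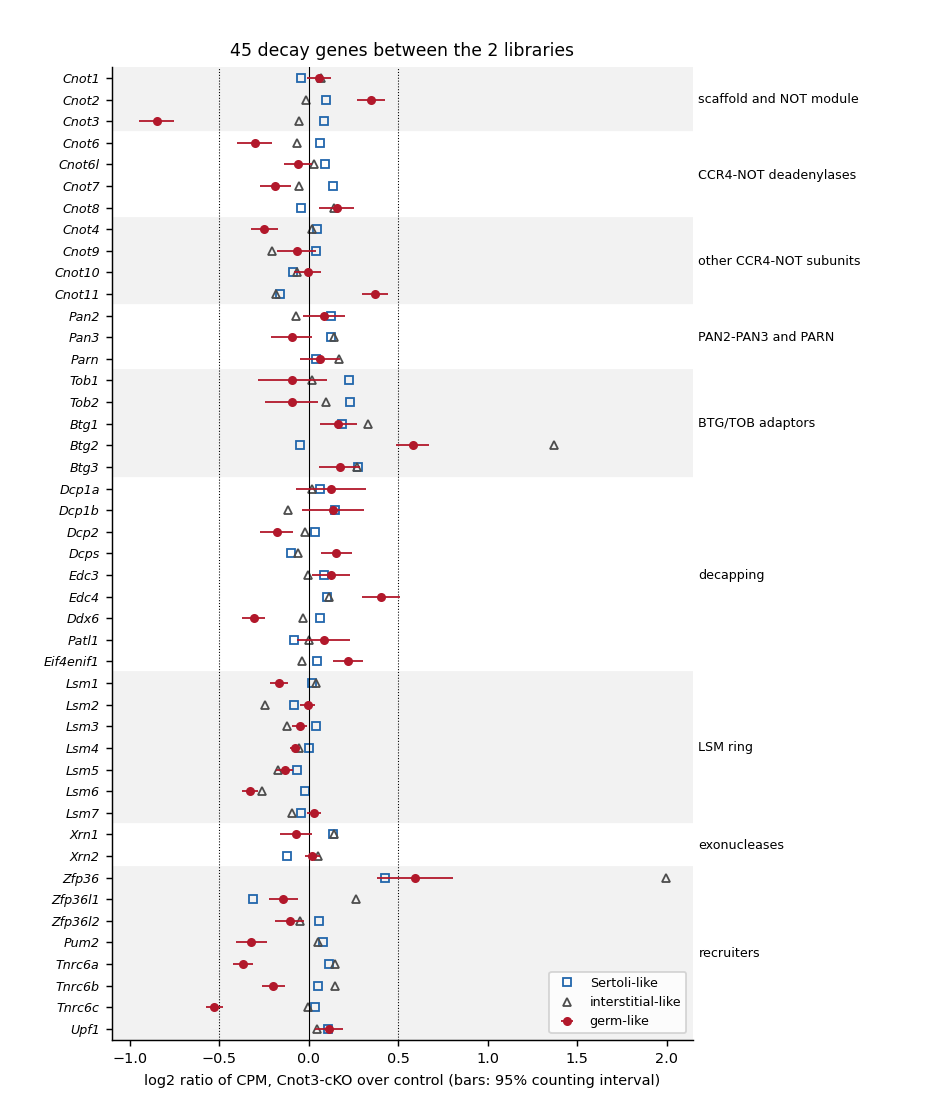
The plot gives, for each of the 45 genes in order of role, the log2 ratio of CPM between the *Cnot3*-cKO and control libraries in germ-like cells (filled circles with 95% counting intervals), Sertoli-like cells (squares) and interstitial-like cells (triangles), with dotted lines at 0.5 and -0.5. *Cnot3* (-0.85) and *Tnrc6c* (-0.53) are left of the lower line in germ-like cells, and *Btg2* and *Zfp36* are right of the upper line in germ-like and, further out, in interstitial-like cells.

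In mRNA level, the partners of *Cnot3* in the NOT module did not share its difference. *Cnot1*, the scaffold and the highest of the module in germ-like cells, had 95.6 CPM in control and 99.4 in *Cnot3*-cKO (log2 ratio 0.06, -0.01 to 0.13). *Cnot2*, which binds CNOT3 directly, had 66.7 and 85.0 (3781 and 2202 UMIs, log2 ratio 0.35, 0.27 to 0.42). The *Cnot2* level was higher in *Cnot3*-cKO in SSC-like cells (78.8 and 98.3 CPM) and in Differentiating-like cells (46.8 and 70.6, log2 ratio 0.59, 0.41 to 0.77), while Meiotic-like cells had 46.8 and 45.7. In Sertoli-like cells *Cnot2* had 44.7 and 47.8. These values are of mRNA, and protein was not measured in these cells. The study reports less CNOT1 and CNOT2 protein in cultured spermatogonial stem cells once *Cnot3* was deleted.

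Among the deadenylases, *Cnot6l*, a CCR4-family nuclease, was the highest in control germ-like cells (75.2 CPM, 72.1 in *Cnot3*-cKO) and *Cnot8*, a CAF1-family nuclease, the lowest (44.2 and 49.3). The CCR4-family paralog *Cnot6* had 54.5 and 44.2 (log2 ratio -0.30, -0.40 to -0.20), and the CAF1-family paralog *Cnot7* had 66.6 and 58.5 (-0.19, -0.27 to -0.10). The 4 genes summed to 240 CPM in control and to 224 CPM in the germ-like cells of *Cnot3*-cKO. In Meiotic-like cells the CCR4-family pair was lower in *Cnot3*-cKO, with 73.9 and 42.1 for *Cnot6* (-0.81, -1.18 to -0.46) and 48.4 and 23.3 for *Cnot6l* (-1.05, -1.54 to -0.59). In CPM the paralogs had unlike orders between cell types. *Cnot6* and *Cnot7* were higher in Sertoli-like cells (89.2 and 87.1 CPM in control) than in germ-like cells, and *Cnot8* was lower there (35.3). These are relative levels, and the order can be reversed in molecules per cell, as for *Cnot1* below.

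The 4 other subunits were all higher in germ-like than in Sertoli-like cells of both libraries, as were 30 of the 45 listed genes in control and 28 in *Cnot3*-cKO. *Cnot11*, which with *Cnot10* forms a module at the amino-terminal end of CNOT1, had 75.7 CPM in control germ-like cells and 26.0 in control Sertoli-like cells, 2.91 times as much. In *Cnot3*-cKO the values were 97.8 and 23.2, 4.21 times as much. *Cnot11* was also higher in *Cnot3*-cKO than in control germ-like cells (log2 ratio 0.37, 0.30 to 0.44), with values of 0.37, 0.39 and 0.39 in SSC-, Progenitor- and Differentiating-like cells and 65.3 and 65.4 CPM in Meiotic-like cells. *Cnot10* had 82.0 and 81.8 CPM in germ-like cells against 39.3 and 37.0 in Sertoli-like cells, with an interval of the log2 ratio between genotypes of -0.08 to 0.07. *Cnot4*, an E3 ubiquitin ligase and the highest of these subunits in control, had 94.6 and 79.7 (-0.25, -0.32 to -0.17). *Cnot9*, a binding platform for recruiters and the lowest, had 41.0 and 39.1.

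Outside CCR4-NOT, *Pan2*, the catalytic subunit of PAN2-PAN3, was the lowest of its group in germ-like cells, at 32.8 CPM (control) and 34.8 CPM (*Cnot3*-cKO). It was nevertheless 2.61 and 2.55 times its level in Sertoli-like cells (12.5 and 13.7). Its partner *Pan3* had the opposite order in CPM, with 36.8 and 34.5 in germ-like and 49.5 and 53.9 in Sertoli-like cells. *Parn*, a separate poly(A) ribonuclease, had 36.7 and 38.4 in germ-like cells. None of these 3 genes had a log2 ratio between genotypes beyond -0.09 to 0.09 in germ-like cells.

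The BTG and TOB adaptors had unlike orders between cell types in CPM, which is a relative level. *Btg2* (chr1:134075170-134079120, minus strand), an antiproliferative gene and a known immediate early and p53 target, had 284 CPM in control Sertoli-like cells, 228 in interstitial-like cells and 43.3 in germ-like cells. In *Cnot3*-cKO the values were 274, 590 and 64.7. The germ-like level was 6.56 times lower than the Sertoli-like level in control and 4.24 times lower in *Cnot3*-cKO. *Tob1*, the lowest adaptor in germ-like cells, had 13.2 and 12.4 CPM against 31.7 and 37.1 in Sertoli-like cells. *Btg3* had the reverse order, with 31.3 and 35.3 in germ-like and 13.5 and 16.4 in Sertoli-like cells. *Btg1* was highest in endothelial-like cells (374 and 379 CPM) and *Tob2* stayed between 12.8 and 32.6 in all control classes.

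Between genotypes *Btg2* had a log2 ratio of 0.58 (0.49 to 0.67) in germ-like cells, and the value was smaller under several choices of cells. Without cells called doublets it was 0.38, without the germ-like clusters led by somatic genes 0.16, and with the 4 named stages weighted equally, an alternative added after seeing the data, 0.07. Stages differed in direction, with 26.5 CPM in control and 36.9 in *Cnot3*-cKO in SSC-like cells but 62.0 and 34.2 in Progenitor-like cells. In interstitial-like cells the ratio was 1.37 (1.34 to 1.40), and in Sertoli-like cells -0.05 (-0.08 to -0.02).

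*Zfp36* (chr7:28376784-28380253, minus strand) encodes tristetraprolin, which binds AU-rich elements and recruits CCR4-NOT. It was the lowest of the recruiters in germ-like cells, with 8.03 CPM in control (455 UMIs) and 12.1 in *Cnot3*-cKO (314 UMIs), a log2 ratio of 0.59 (0.38 to 0.80). Without doublets the ratio was 0.41, without the clusters led by somatic genes 0.31, and with stages weighted equally 0.10. The larger differences were in other classes, with 18.4 and 73.5 in interstitial-like cells (interval of the log2 ratio 1.88 to 2.11) and 178 and 602 in macrophage-like cells. Sertoli-like cells had 15.7 and 21.1 (0.43, 0.29 to 0.56).

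*Btg2* and *Zfp36* were higher in *Cnot3*-cKO beside a list of 9 immediate early genes, which respond within minutes to serum and stress. The summed level of the list in interstitial-like cells was 1261 CPM in control and 3206 in *Cnot3*-cKO, with 8 of 9 genes higher in *Cnot3*-cKO. In macrophage-like cells it was 1306 and 4974, with 9 of 9 higher, in germ-like cells 205 and 361, with 9 of 9 higher, and in Sertoli-like cells 2402 and 2830, with 6 of 9 higher. *Fos*, for example, had 93.5 and 528 CPM in interstitial-like cells. Of 12 p53 targets, 11 were higher in *Cnot3*-cKO germ-like cells (median log2 ratio 0.48) and 7 in interstitial-like cells (0.08). Over all genes the median log2 ratio was 0.02 in germ-like, 0.04 in Sertoli-like and -0.02 in interstitial-like cells. It was not computed for macrophage-like cells. In empty barcodes *Btg2* had 125 and 214 CPM and *Zfp36* 23.0 and 57.1. Sertoli markers summed to 196 CPM in germ-like cells of the control and 258 CPM in those of *Cnot3*-cKO, with none of 8 at 0, and stroma markers to 603 and 501, with none of 8 at 0. The part of these levels in the *Btg2* and *Zfp36* differences was not tested.

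**Figure D2:**
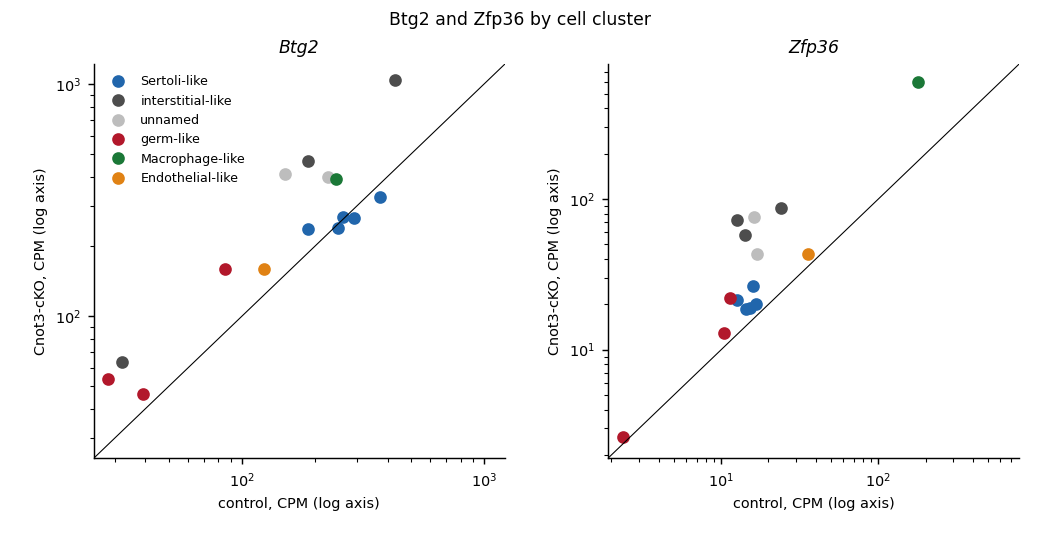
Each point is a cluster of at least 30 cells in each library, with its level of *Btg2* (left) or *Zfp36* (right) in control on the x axis and in *Cnot3*-cKO on the y axis, both in CPM on log axes, coloured by class. Points above the line are higher in *Cnot3*-cKO, which holds for 15 of 15 clusters for *Zfp36* and 12 of 15 for *Btg2*, where 3 of 5 Sertoli-like clusters are on or under the line.

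Although not alike in every class or stage, *Btg2* and *Zfp36* were past the threshold upward in both interstitial-like and, with doublets kept, germ-like cells. Their starts were therefore searched for motifs of inducible transcription, using 250 bases before the RefSeq start (GRCm38.p6) of each gene. The *Btg2* stretch (chr1:134079156-134079405, minus strand) holds a cAMP response element (TGACGTCA, the same on both strands) from 166 to 159 bases before the start, given in capitals, as do 1.55% of 32851 mouse promoters of the same length. Shown for the element and the GC-rich sequence after it, the stretch reads as follows.
Btg2: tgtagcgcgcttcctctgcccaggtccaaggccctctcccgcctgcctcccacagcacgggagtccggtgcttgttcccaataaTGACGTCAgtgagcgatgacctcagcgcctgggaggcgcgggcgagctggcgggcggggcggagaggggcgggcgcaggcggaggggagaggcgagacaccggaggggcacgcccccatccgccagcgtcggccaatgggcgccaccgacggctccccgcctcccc

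The same window of *Zfp36* holds an EGR motif (GCGGGGGCG, searched on both strands, in 2.57% of promoters) from 105 to 97 bases before the start and a CArG box, the binding motif of serum response factor (in 1.47% of promoters), from 58 to 49 bases before it. GENCODE places a longer *Zfp36* transcript across this window, so only short stretches are shown, with the motif in capitals.
Zfp36 EGR motif, chr7:28379315-28379343, minus strand: gagctacgccGCGGGGGCGcgtcccggaa
Zfp36 CArG box, chr7:28379267-28379296, minus strand: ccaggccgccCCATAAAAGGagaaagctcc

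Of the 38 genes of the list with a promoter in the table, 2 held a cAMP response element (*Btg2* and *Lsm2*), 2 an EGR motif (*Cnot9* and *Zfp36*) and 1 a CArG box (*Zfp36*). *Patl1* was the 1 gene with an AP-1 motif (TGACTCA or TGAGTCA), which 4.46% of all promoters hold. In germ-like cells the log2 ratios between genotypes of *Lsm2*, *Cnot9* and *Patl1* were -0.01, -0.07 and 0.08. A match describes letters and not binding. No p53 motif was searched, and the part of any motif in the ratios was not tested.

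The decapping genes were led in germ-like cells by *Ddx6*, the RNA helicase of P-bodies, at 125 CPM in control (7069 UMIs) and 101 in *Cnot3*-cKO (2613 UMIs), a log2 ratio of -0.31 (-0.37 to -0.24). It was lower in *Cnot3*-cKO in each stage (119 and 93.3 in SSC-like, 107 and 75.5 in Progenitor-like, 133 and 106 in Differentiating-like, 126 and 113 in Meiotic-like cells), while Sertoli-like cells had 112 and 118. *Edc4*, the scaffold of the decapping complex, had the opposite order, with 35.4 and 46.8 CPM (log2 ratio 0.40, 0.30 to 0.51). Its ratio was 0.42 in SSC-like, 0.57 in Progenitor-like, 0.65 in Differentiating-like and 0.05 in Meiotic-like cells. The 3′ end of *Edc4* is overlapped on the same strand by *Nrn1l*, so reads of the pair could be shared. *Eif4enif1*, the eIF4E transporter, was also higher in *Cnot3*-cKO (59.4 and 69.1, 0.22, 0.14 to 0.30).

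The catalytic subunit *Dcp2* had 59.8 and 52.9 CPM in germ-like cells, and its activator *Dcp1a*, the lowest of the group, had 11.3 and 12.4, close to the Sertoli-like 13.1 and 13.6. The paralog *Dcp1b* had 14.8 and 16.2 in germ-like and 9.13 and 10.1 in Sertoli-like cells. *Edc3*, an enhancer of decapping, was 2.27 and 2.33 times as high in germ-like cells (39.5 and 43.0) as in Sertoli-like cells (17.4 and 18.4). The scavenger enzyme *Dcps* had 57.9 and 64.4, and *Patl1* 20.8 and 22.0, in germ-like cells. Of the 9 genes, 7 had a ratio above 0 between genotypes and 2 below, with a median of 0.13 (0.02 for all genes). Of the 45 listed genes, 20 were above 0.

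The LSM ring had the highest summed level of the groups in germ-like cells. Its 7 genes summed to 2156 CPM (control) and 2019 CPM (*Cnot3*-cKO) in germ-like cells, against 952 and 938 in Sertoli-like and 774 and 707 in interstitial-like cells. Every one of the 7 was higher in germ-like than in Sertoli-like cells in each library. So were 30 of the 45 listed genes in control and 28 in *Cnot3*-cKO, and the median log2 ratio of all genes was 0.14 and 0.08. *Lsm4* was the highest, with 585 CPM in control (24.9 UMIs per cell) and 555 in *Cnot3*-cKO, 3.23 and 3.06 times the Sertoli-like level. *Lsm1*, the subunit that makes the cytoplasmic ring distinct from the nuclear splicing ring, was the lowest, at 194 and 173, 1.75 and 1.53 times the Sertoli-like level. *Lsm2* (291 and 290 CPM), *Lsm3* (278 and 269) and *Lsm7* (291 and 298) were at 2.89, 2.10 and 2.11 times the Sertoli-like level in *Cnot3*-cKO. Because 6 of these proteins also sit in the nuclear ring with LSM8, their levels are not specific to decay.

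Between genotypes 6 of the 7 ring genes had a log2 ratio below 0 (25 of the 45 listed genes did), with a median of -0.08 (0.02 for all genes). *Lsm6* was the lowest of them, with 301 and 240 CPM (17064 and 6217 UMIs, log2 ratio -0.33, -0.37 to -0.29). Its values were 326 and 236 in SSC-like and 342 and 254 in Differentiating-like cells, but 282 and 293 in Meiotic-like cells. The interstitial-like ratio of *Lsm6* was -0.26 (-0.32 to -0.21), so the difference was not limited to germ-like cells. In Sertoli-like cells it was -0.02 (-0.07 to 0.03).

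Of the exonucleases, *Xrn2*, the nuclear enzyme, had 264 and 267 CPM in germ-like cells and 176 and 161 in Sertoli-like cells. The cytoplasmic *Xrn1* had 56.1 and 53.4 in germ-like cells and 56.6 and 62.1 in Sertoli-like cells. Neither differed between genotypes in germ-like cells by more than its counting interval (0.02, -0.02 to 0.06, and -0.07, -0.16 to 0.02).

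Of the 3 TNRC6 genes of the microRNA pathway, *Tnrc6c* was past the threshold downward in germ-like cells and *Tnrc6a* and *Tnrc6b* were not. *Tnrc6c* (chr11:117654289-117763439, plus strand), a GW182 protein that bridges Argonaute and CCR4-NOT, was the highest recruiter, with 252 CPM in control (14258 UMIs, 10.7 UMIs per cell) and 175 in *Cnot3*-cKO (4523 UMIs, 8.09 per cell). The log2 ratio was -0.53 (-0.58 to -0.48). It was -0.63 in SSC-like cells (262 and 170 CPM), -0.51 in Progenitor-like cells (301 and 211), -0.53 in Differentiating-like cells (233 and 161) and -0.17 in Meiotic-like cells (250 and 222), and thus below 0 in all 4 stages. Sertoli-like cells had 91.3 and 93.4 and interstitial-like cells 92.5 and 92.1, with no such difference. The value is close to the threshold and passed under it with a mean over cells (-0.49) and with stages weighted equally (-0.45).

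The values of the paralogs were nearer to 0. *Tnrc6a* had 166 and 128 CPM (log2 ratio -0.37, -0.43 to -0.31) and was lower in each of the 4 stages, with 181 and 131 in SSC-like cells. *Tnrc6b* had 121 and 105 (-0.20, -0.26 to -0.13), but 84.4 and 84.6 in Differentiating-like cells. In Sertoli-like cells the log2 ratios of the 3 genes were between 0.03 and 0.11.

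*Pum2*, a Pumilio protein that represses mRNAs with its 3′ motif, had 71.8 and 57.5 CPM in germ-like cells (-0.32, -0.41 to -0.24). In SSC-like cells it was past the threshold, with 65.5 and 45.7 (log2 ratio -0.52, -0.67 to -0.37), whereas Meiotic-like cells had 91.4 and 90.1. *Upf1*, the helicase of nonsense-mediated decay, had 74.2 and 80.3 in germ-like cells. *Zfp36l1* and *Zfp36l2*, relatives of *Zfp36*, had 76.4 and 69.3, and 74.3 and 69.1. *Zfp36l1* was far higher in interstitial-like cells, at 345 and 414 CPM. Its Sertoli-like values were 90.2 and 72.8 (log2 ratio between genotypes -0.31, -0.37 to -0.25), closer to the germ-like ones.

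Relative to Sertoli-like cells, a difference of at least 2-fold in both libraries was found for 9 of 45 genes upward (*Cnot10*, *Cnot11*, *Pan2*, *Btg3*, *Edc3*, *Lsm2*, *Lsm3*, *Lsm4* and *Lsm7*), where 24.5% of 12861 genes had it, and for 2 downward (*Tob1* and *Btg2*), where 21.8% had it. The median log2 ratio of the 45 genes was 0.58 in control and 0.42 in *Cnot3*-cKO, against 0.14 and 0.08 for all genes. *Tnrc6c* had a log2 ratio of 1.46 in control but 0.90 in *Cnot3*-cKO, and *Cnot3* of 0.16 in control and -0.78 in *Cnot3*-cKO.

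Relative to interstitial-like cells, 20 of 45 genes were at least 2-fold higher in germ-like cells in both libraries, where 29.6% of 13096 genes were. They included all 7 LSM genes, *Cnot1*, *Cnot7*, *Cnot9*, *Cnot10* and *Cnot11*. The genes at least 2-fold lower numbered 4 (*Btg1*, *Btg2*, *Zfp36* and *Zfp36l1*), where 22.9% of all genes were. *Cnot1* itself was highest in Sertoli-like cells, with 142 and 138 CPM against 95.6 and 99.4 in germ-like and 44.4 and 46.6 in interstitial-like cells. In molecules per cell the order was the reverse, 4.06 UMIs per germ-like and 2.04 per Sertoli-like cell in control, since germ-like cells held more UMIs.

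**Figure D3:**
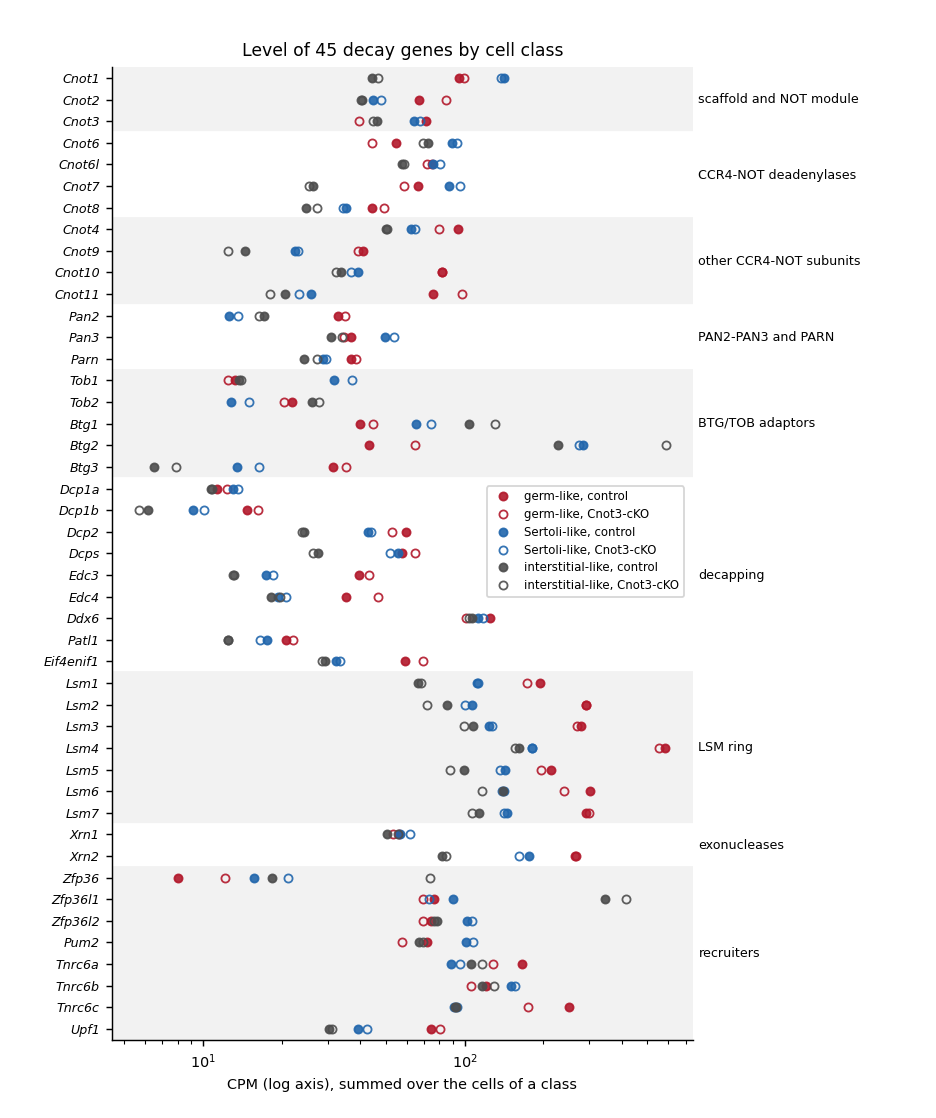
For each of the 45 genes the plot shows CPM (log axis) in germ-like, Sertoli-like and interstitial-like cells, filled for control and open for *Cnot3*-cKO. The LSM genes lie furthest right in germ-like cells, up to 585 for *Lsm4*, whereas *Btg2*, *Btg1* and *Zfp36l1* are right-most in somatic classes.

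Germ stages differed in a few genes. Between SSC-like and Differentiating-like cells, a log2 ratio of at least 0.5 in both libraries was found for *Cnot6l*, *Tob1* and *Zfp36* (3 of 45, against 10.4% of 9588 genes) in the direction of SSC-like cells, and for *Cnot8* and *Dcp2* (2 of 45, against 12.9%) in that of Differentiating-like cells. *Cnot6l* had 95.8 CPM in control SSC-like cells and 44.5 in Differentiating-like cells, and 88.9 and 48.5 in *Cnot3*-cKO. *Cnot8* had 38.3 and 55.4 in control and 44.7 and 66.0 in *Cnot3*-cKO. The 2 nuclease genes thus had opposite orders across these stages. *Zfp36* had 11.3 and 2.36 CPM in control and 12.3 and 3.49 in *Cnot3*-cKO, with 58 UMIs in Differentiating-like cells over both libraries. Macrophage markers, which mark the class with most *Zfp36*, summed to 12.1 and 14.2 CPM in SSC-like cells and 3.37 and 5.63 in Differentiating-like cells. In Progenitor-like cells these markers summed to 4.54 and 7.84 CPM, while *Zfp36* had 10.0 and 11.4 CPM (95 and 16 UMIs). The part of macrophage RNA in the *Zfp36* difference was not tested.

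Between SSC-like and Meiotic-like cells, *Cnot2*, *Cnot6l*, *Xrn2*, *Zfp36* and *Tnrc6b* (5 of 45, against 21.7% of 9059 genes) were past the same threshold in the direction of SSC-like cells, and *Tob2* and *Dcp2* (2 of 45, against 22.3%) in the other direction. *Xrn2* had 301 CPM in SSC-like, 320 in Progenitor-like, 230 in Differentiating-like and 151 in Meiotic-like control cells. In *Cnot3*-cKO the values were 318, 328, 221 and 121, nearly the same course. *Tnrc6b* was highest in Progenitor-like cells of both libraries (173 and 167) and lowest in Meiotic-like cells (62.7 and 54.9). *Dcp2* went the other way, from 50.3 and 40.7 in SSC-like to 87.0 and 89.7 in Meiotic-like cells. *Tob1* was lowest in Progenitor-like cells, at 6.23 and 4.99.

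Within a stage, the genotype ratio of the 45 genes was past 0.5 downward in SSC-like cells for *Cnot3*, *Pum2* and *Tnrc6c* (3 of 45, against 7.27% of 10667 genes) and upward for 0 genes (against 11.1%). In Differentiating-like cells it was past the threshold upward for *Cnot2*, *Btg2* and *Edc4* (3 of 44 with enough UMIs, against 6.67% of 9885 genes) and downward for *Cnot3* and *Tnrc6c* (2 of 44, against 3.9%). Progenitor-like cells, with 33 cells in *Cnot3*-cKO, had 8 of 44 genes past it downward (*Cnot3*, *Cnot6*, *Btg2*, *Ddx6*, *Zfp36l1*, *Zfp36l2*, *Pum2* and *Tnrc6c*), where 11.2% of 8397 genes were, and *Edc4* upward (1 of 44, against 11.6%). In Meiotic-like cells *Cnot6*, *Cnot6l* and *Tob2* were past it downward (3 of 42, against 3.04% of 6323 genes) and *Btg3* upward (1 of 42, against 2.39%).

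**Figure D4:**
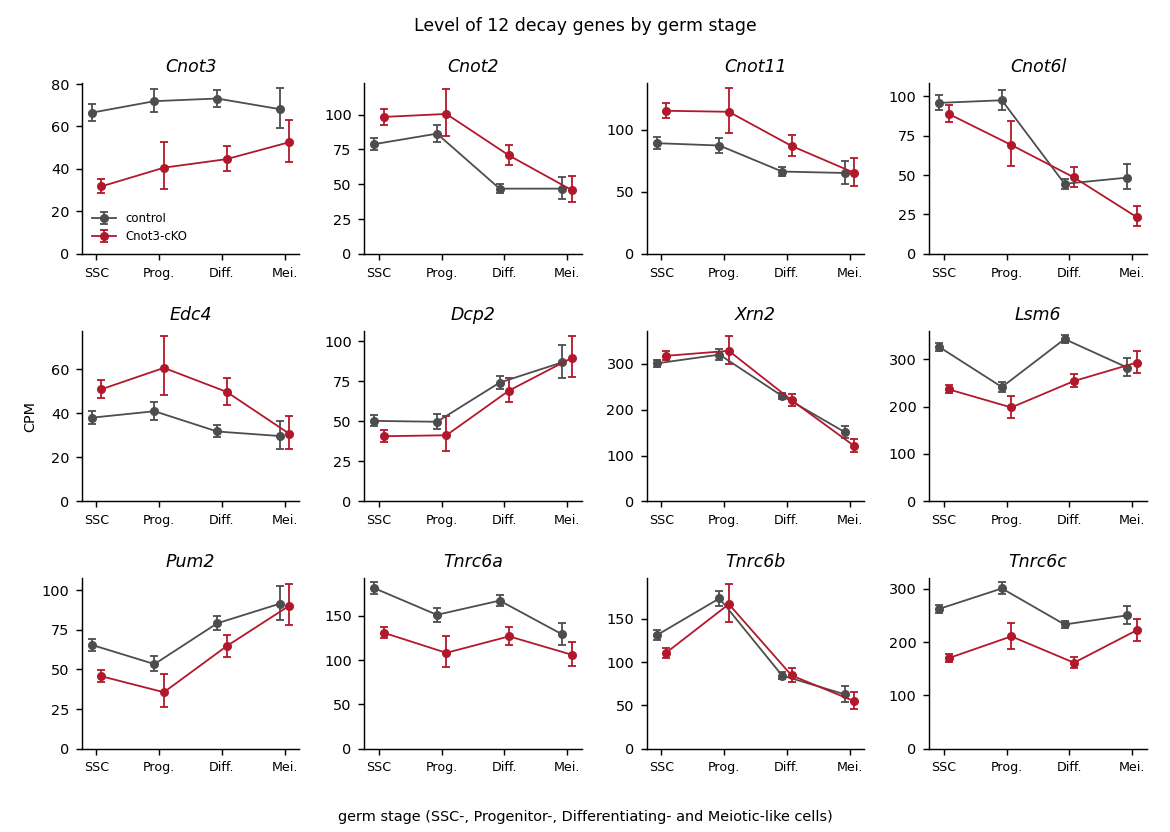
The panels show CPM of 12 genes in SSC-, Progenitor-, Differentiating- and Meiotic-like cells (x axis) in control (grey) and *Cnot3*-cKO (red), with exact 95% Poisson intervals. *Cnot3*, *Tnrc6a* and *Tnrc6c* are lower in *Cnot3*-cKO at each stage, *Cnot2*, *Cnot11* and *Edc4* are higher in *Cnot3*-cKO in SSC-, Progenitor- and Differentiating-like cells and nearly level in Meiotic-like cells, and *Xrn2* declines from 301 to 151 in control with a similar course in *Cnot3*-cKO.

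Among 51 further genes of mRNA decay, 50 had enough UMIs in germ-like cells, of which 0 were past 0.5 upward (9.36% of all genes) and 2 of 50 downward (4.9%), and their median log2 ratio was -0.07 (0.02 for all genes). *Nanos3*, a germ cell protein that recruits CCR4-NOT and one of the markers used for Progenitor-like cells, had 44.2 and 27.6 CPM (log2 ratio -0.68, -0.80 to -0.56). Progenitor-like cells were 209 of 1333 germ-like cells in control and 33 of 559 in *Cnot3*-cKO. The part of these cell numbers in the *Nanos3* ratio was not tested. *Nudt16*, a nuclear decapping enzyme, had 14.8 and 10.4 (-0.51, -0.72 to -0.31). The 4 Argonautes, partners of the TNRC6 proteins, had a median of -0.36, with *Ago1* at 20.8 and 16.2, *Ago2* at 13.2 and 10.2, *Ago3* at 38.8 and 30.3 and *Ago4* at 6.30 and 6.49 CPM. The 9 genes of nonsense-mediated decay had a median of 0.07, and 8 genes of poly(A) binding and tailing of -0.15.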

How the data were processed

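The deposited files hold UMI counts, not normalized, 1 matrix per genotype with every barcode and 2 samples merged. The submitters' processing notes name Cell Ranger 3.0.1 and mm10. Barcodes were called as cells from 7976.78 UMIs (control) and 7664.36 (*Cnot3*-cKO), the order-of-magnitude rule with 3000 expected cells, and kept up to 20% mitochondrial UMIs, because the stated limits of 10% and of 2 SD kept 241 and 72 germ-like cells. Doublets (Scrublet, 499 and 447 cells) were marked and kept, and left out as an alternative. Cells were clustered (Leiden, resolution 0.5, 2500 variable genes, 30 components), and clusters were named from at least 3 markers. Germ-like cells were clustered again with genes centred within library. UMIs were summed per class or stage, divided by the class total and multiplied by 1000000. Levels have exact Poisson, ratios exact conditional, and shares exact Clopper-Pearson 95% intervals. The ratio script was tested on simulated data.

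With 1 library per genotype there is no test, no replicate spread and no p-value. The genes given full values were *Cnot3*, those past the fold between genotypes in germ-like cells or in both libraries between germ-like and Sertoli-like cells, and the highest and lowest of each role list in control germ-like cells, and others were added after their values were seen. The gene list, roles and thresholds were chosen with earlier results of these data known. Gene positions come from GENCODE M21 by gene identifier, promoters from RefSeq. Scanpy 1.11.5 was used.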

Additional observations from a re-analysis of the deposited data

Results flagged for a closer look

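*Cnot3* had a log2 ratio of -0.85 in germ-like cells and 0.08 (0.01 to 0.15) in Sertoli-like cells, and was listed here because the directions are opposite. *Btg2* was listed for the same reason, with 0.58 in germ-like and 1.37 in interstitial-like cells against -0.05 in Sertoli-like cells. Each genotype had 1 library, so these differences between classes were not tested.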

How the results depend on the processing

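None of the values past a threshold that were rerun gene by gene turned its direction. These were the genotype ratios in germ-like cells and the ratios of germ-like to Sertoli-like cells. They also included the ratios of SSC-like to Differentiating-like and to Meiotic-like cells. Within stages only the genotype ratios of *Cnot3* and *Tnrc6c* were rerun, and in interstitial-like cells those of *Btg2* and *Zfp36*. Ratios of single genes to interstitial-like cells, and within-stage genotype ratios of other genes, were not. The number of genes past 0.5 upward in germ-like cells, 2 (*Btg2* and *Zfp36*), was 4 with the stated filters. It was 1 with the empty-barcode profile subtracted, at a share likely too high because doublets were included. It was 0 without doublets, 0 without clusters led by somatic genes and 0 with the 4 named stages weighted equally, a setting added after seeing the data. The number downward, 2 (*Cnot3* and *Tnrc6c*), was 1 with a mean over cells and 1 with stages weighted equally, and the *Cnot3* ratio, -0.85, was then -0.72 (range over all settings -0.90 to -0.72). Against Sertoli-like cells, 9 genes upward and 2 downward became 5 and 1 with the stated filters. From SSC-like to Differentiating-like cells, 3 genes upward became 5 without centring genes within library, where 9 *Cnot3*-cKO cells were Progenitor-like and 1 SSC-like cluster held 1 control and 278 *Cnot3*-cKO cells, and from SSC-like to Meiotic-like cells 2 downward became 1 with a mean over cells and 1 at resolution 1.0. *Cnot3* UMIs, found in 49.5% of germ-like cells in control and 33.9% in *Cnot3*-cKO, were found in 28.7% and 18.1% after thinning to 5000 UMIs and in 89.5% and 75.5% unthinned, since fewer or more UMIs per cell were read. The cause of the other changes was not tested. The *Btg2* and *Zfp36* ratios in interstitial-like cells stayed between 1.37 and 1.39 and between 1.99 and 2.05 over the settings added for them. No paired analysis was possible because each genotype has 1 merged library. With no replicates, the spread between animals is unknown, and the intervals are too narrow by that amount.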
